A study of Homo sapiens with 2 samples.

Results

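The hypoxia-inducible genes described here are CA9, VEGFA, ADM, NDRG1, BNIP3, ANKRD37, EGLN3, PFKFB4, SLC2A1 and PDK1. They were taken as every gene probe carrying 1 of these names, which gave 12 probes for 10 genes out of 34127 probes under 25940 gene names. Cells that run short of oxygen stabilise HIF-1 alpha (HIF1A), because the prolyl hydroxylases that mark it for destruction by the VHL ubiquitin ligase need oxygen to work. HIF-1 alpha then pairs with HIF-1 beta (ARNT) and binds short DNA motifs, the hypoxia response elements, near genes for glucose uptake, glycolysis, pH control, vessel growth and mitophagy. SET7/9, the lysine methyltransferase encoded by SETD7, is known to methylate HIF-1 alpha, and hypoxia-inducible genes are widely studied in gastric and other solid tumours.

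MKN74 and MKN45, both established gastric cancer cell lines grown in RPMI1640 with 10% fetal bovine serum, were electroporated with 50 nM siRNA and harvested after 48 hrs. In each line, cells given SET7/9 siRNA (labelled with Cy5) were compared with cells given a negative control siRNA from SIGMA (labelled with Cy3) on 1 two-colour Agilent array, with no dye swap and no replicate array. Which of the SET7/9 siRNAs was hybridised, and any oxygen level or hypoxic treatment, is not given in the sources used here. The error printed after each log2 ratio is that of the scanner software's error model for the spot, and it covers no variation between cultures, so that no value has a replicate check. On these arrays 54.7% of the gene probes in MKN74 and 59.7% in MKN45 were well above background in Cy3, and 0 gene spots were saturated. Markers of epithelium (CDH1, EPCAM, KRT8, KRT18 and KRT19) were well above background in both lines for 5 of 5 genes, whereas of 11 markers of other cell types 2 were measured in both channels in MKN74 and 3 in MKN45.

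SETD7, the targeted gene, was read by its brighter probe, on chromosome 4 (140427692 to 140427751 of GRCh37). The processed signal, after background subtraction and dye normalization by the software, was 369 with control siRNA and 90.1 with SET7/9 siRNA in MKN74, and 197 and 51.2 in MKN45. These are log2 ratios of -2.03 (error 0.28) and -1.95 (error 0.28), which became -1.36 and -0.99 with normexp and loess in place of the software's own correction. The normexp step, here and below, added an offset of 50 to both channels, which draws the ratios of dim probes toward 0. A second probe (140453844 to 140453903), assigned to a different transcript record, did not follow: the log2 ratio in MKN74 was 0.24 (error 0.22), and in MKN45 it was -0.23 (error 0.21). The study itself reported lower SET7/9 mRNA and protein in both lines after transfection of its SET7/9 siRNAs.

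With SETD7 lowered at its brighter probe, the hypoxia-inducible genes stayed near their control level. Both channels were well above background for 8 of 10 genes in MKN74 and 10 of 10 in MKN45, and a gene was called changed where its ratio passed 1.5-fold, which is 0.58 on the log2 scale. In MKN74, 0 of 8 genes were past 1.5-fold in either direction, where 0.705% of all measured genes were higher and 1.42% lower. In MKN45, 1 of 10 was higher, ADM, which encodes the vasodilator peptide adrenomedullin, and 0 were lower, against 0.828% and 1.49% of all genes. The median log2 ratio of the members was 0.033 in MKN74 and 0.097 in MKN45, beside -0.0058 and 0.0013 over all genes. Within 1 error of 0 lay 7 of 8 members in MKN74 and 7 of 10 in MKN45. Most genes did so too, 11116 of 14459 in MKN74 and 12017 of 15702 in MKN45, so this count does not set the members apart. Differences between the cell lines were larger. In control cells, ADM, NDRG1 and SLC2A1 were 23.6-fold, 9.05-fold and 8.58-fold lower in MKN45 than in MKN74, and BNIP3 was at least 236-fold higher in MKN45.

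**Figure D1:**
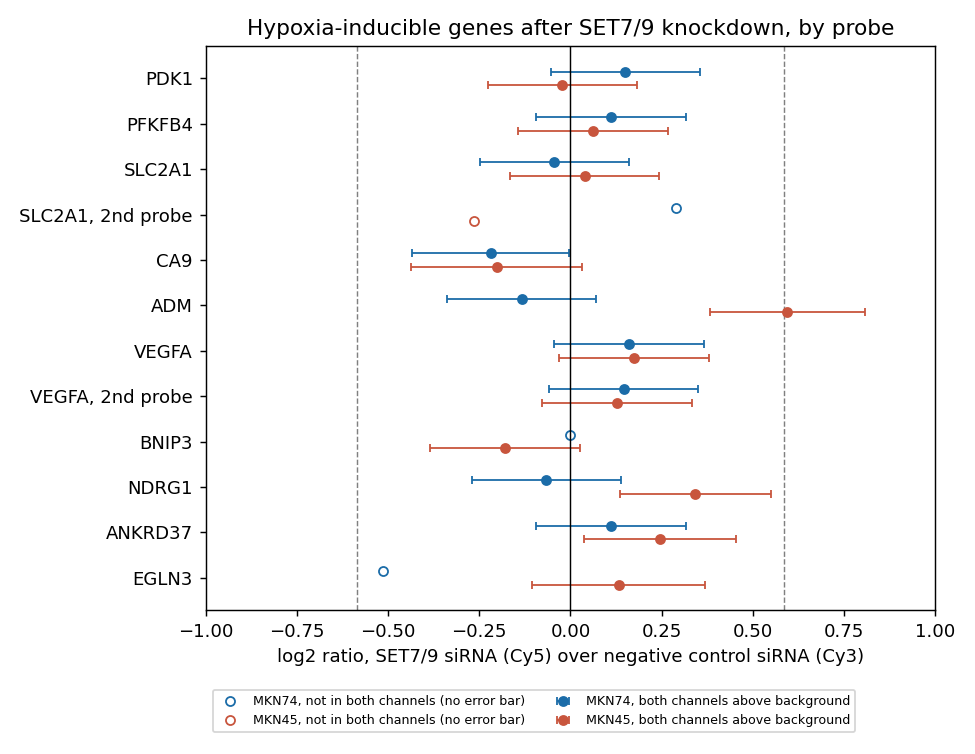
Log2 ratio of SET7/9 siRNA over negative control siRNA at each of the 12 probes, with MKN74 in blue and MKN45 in red. Bars are the scanner software's error for 1 array, dashed lines mark 1.5-fold, and open points were not well above background in both channels. ADM in MKN45 is the one filled point past a dashed line, at 0.59.

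Among the genes of glucose handling, SLC2A1 encodes the glucose transporter GLUT1, PDK1 a kinase that holds pyruvate out of the mitochondrial cycle, and PFKFB4 an enzyme that sets the level of a glycolytic activator. SLC2A1 was measured on chromosome 1 (43391874 to 43391933 of GRCh37), with processed signals of 34197 for control and 33167 for SET7/9 siRNA in MKN74 and of 3510 and 3605 in MKN45. Within each line the siRNAs gave nearly the same signal, with log2 ratios of -0.04 (error 0.20) and 0.04 (error 0.20). Both signals were lower on the MKN45 array, before any scaling between arrays. A second SLC2A1 probe (43396070 to 43396129) was above background in 1 of 4 channels and gave no usable ratio. PDK1 (chromosome 2, 173463273 to 173463332) had signals of 871 and 967 in MKN74 and of 1085 and 1068 in MKN45, and log2 ratios of 0.15 (error 0.20) and -0.02 (error 0.20). PFKFB4 (chromosome 3, 48555454 to 48555513) had signals of 238 and 257 in MKN74 and of 226 and 236 in MKN45, and log2 ratios of 0.11 (error 0.21) and 0.06 (error 0.21). None of these values exceeded its error.

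CA9, the tumour-associated carbonic anhydrase that exports acid equivalents, was dim. Its probe (chromosome 9, 35677817 to 35679204) covers a span longer than the probe itself, as a probe across a splice junction does. The signals were 103 with control and 88.2 with SET7/9 siRNA in MKN74 and 52.2 and 45.4 in MKN45. The log2 ratios were -0.22 (error 0.21) and -0.20 (error 0.23), about the size of the errors. CA9 was thus the one member below 0 in both lines by these ratios. With normexp and loess its values were -0.11 and -0.05, and SLC2A1, at -0.09 and -0.03, was then below 0 in both lines too.

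VEGFA and ADM encode secreted signals to blood vessels. VEGFA, the vascular endothelial growth factor, was measured by 2 probes on chromosome 6 (43746223 to 43746634 and 43753511 to 43753570). The brighter probe read 1685 and 1884 in MKN74 and 1145 and 1292 in MKN45, and the other 588 and 651 in MKN74 and 279 and 305 in MKN45, in each case with the control siRNA first. All 4 pairs were higher with SET7/9 siRNA, with log2 ratios of 0.16 and 0.15 in MKN74 and 0.17 and 0.13 in MKN45 (errors 0.20 to 0.21), and all 4 were smaller than their error. The lines differed in this ratio by 0.01 at the brighter probe, with an error of 0.29.

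ADM was measured on chromosome 11 (10328780 to 10328839) by 1 probe printed 10 times on each array. Mean signals were 11593 with control and 10568 with SET7/9 siRNA in MKN74, and 432 and 653 in MKN45. In MKN74 all 10 spots were below 0 on the log2 ratio scale, from -0.17 through a median of -0.12 to -0.10. In MKN45 they ran from 0.49 through 0.61 to 0.67, and 7 of 10 were past the cutoff. The spots of the cell lines did not overlap, and their means were -0.13 (SD of spots 0.027, error 0.20) and 0.59 (SD of spots 0.061, error 0.21). Spots share 1 labelled RNA, so their SD is within-array only. After normexp background correction (offset 50) and loess normalization the MKN45 value was 0.53, under the cutoff. The part of the offset in this smaller value was not tested.

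**Figure D2:**
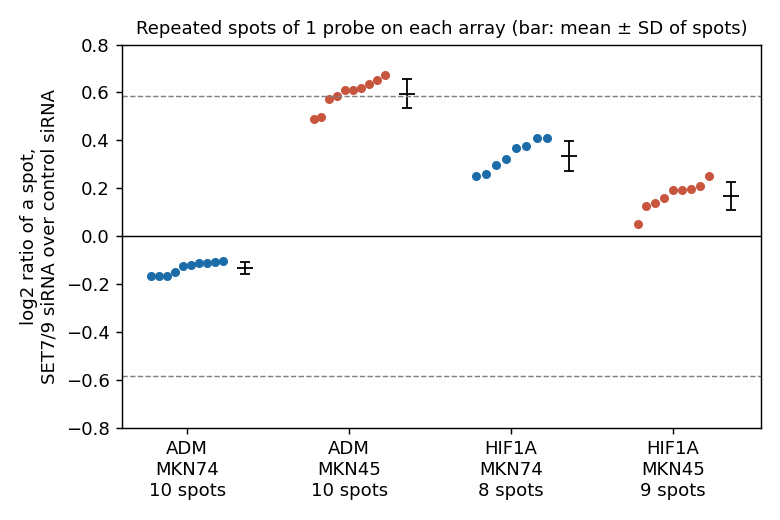
Log2 ratio of each repeated spot of the ADM probe and of the brighter HIF1A probe on each array, with the mean and SD of the spots beside them. Dashed lines mark 1.5-fold, and spots are drawn in order of value. In MKN74 the ADM spots lie between -0.17 and -0.10, those of MKN45 between 0.49 and 0.67, while HIF1A spots are above 0 in both lines.

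The 250 bases before the RefSeq start of ADM (GRCh38.p14, chr11:10304823-10305072, plus strand) are shown as the promoter of the one member past the cutoff. Capitals in this and the other promoters mark the core letters of the hypoxia response element, ACGTG or GCGTG, on either strand (CACGT or CACGC when read on the strand shown). ADM held 1 match, which began 101 bases before the start.
ADM: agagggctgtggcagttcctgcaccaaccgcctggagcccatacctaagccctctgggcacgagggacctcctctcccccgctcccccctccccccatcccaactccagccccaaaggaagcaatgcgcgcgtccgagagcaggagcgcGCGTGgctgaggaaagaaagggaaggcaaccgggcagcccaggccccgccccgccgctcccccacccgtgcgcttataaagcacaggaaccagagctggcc

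NDRG1 and BNIP3 belong to the stress response, NDRG1 as a growth-restraining protein induced by differentiation and iron loss and BNIP3 as a mitochondrial receptor for mitophagy. NDRG1 (chromosome 8, 134249719 to 134249778) had signals of 36443 with control and 34808 with SET7/9 siRNA in MKN74 and of 3547 and 4495 in MKN45. The log2 ratio in MKN74 was -0.07 (error 0.20), and MKN45 gave 0.34 (error 0.21), the second largest of the members there and below the cutoff. BNIP3 (chromosome 10, 133781881 to 133781940) read 3.90 and 3.42 in MKN74, not well above background in either channel, against 4646 and 4104 in MKN45. The MKN45 log2 ratio was -0.18 (error 0.20), and MKN74 gave no usable ratio.

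ANKRD37, a small ankyrin repeat protein, and EGLN3, the oxygen-sensing prolyl hydroxylase that acts back on HIF-1 alpha, complete the set. ANKRD37 (chromosome 4, 186321293 to 186321352) had signals of 408 and 440 in MKN74 and of 159 and 188 in MKN45, with log2 ratios of 0.11 (error 0.20) and 0.25 (error 0.21). EGLN3 (chromosome 14, 34393422 to 34393481) was not well above background in MKN74, at 12.3 and 8.60, and read 52.8 and 57.9 in MKN45, with a log2 ratio there of 0.13 (error 0.24). In MKN45 all 10 members could therefore be read, and ANKRD37, NDRG1 and ADM were the 3 whose ratio exceeded its error. The other 7 lay within it, as did 12017 of 15702 genes measured in MKN45.

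BNIP3 and SLC2A1 are shown as members with large and opposite differences between the lines. The BNIP3 window (chr10:131981924-131982173, minus strand) held 6 matches, which began 143 to 104 bases before the start. A palindromic CACGTG accounts for 2 of them, 1 on each strand, and the others are GCGTG on the opposite strand. The SLC2A1 window (chr1:42958869-42959118, minus strand) held 0 matches upstream and 1 in the 50 bases after the start.
BNIP3: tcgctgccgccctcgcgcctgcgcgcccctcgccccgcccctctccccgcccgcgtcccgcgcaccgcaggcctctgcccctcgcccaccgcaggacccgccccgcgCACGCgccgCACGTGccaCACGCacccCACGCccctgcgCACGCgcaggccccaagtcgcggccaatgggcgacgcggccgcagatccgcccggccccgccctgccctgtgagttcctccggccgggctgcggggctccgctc
SLC2A1: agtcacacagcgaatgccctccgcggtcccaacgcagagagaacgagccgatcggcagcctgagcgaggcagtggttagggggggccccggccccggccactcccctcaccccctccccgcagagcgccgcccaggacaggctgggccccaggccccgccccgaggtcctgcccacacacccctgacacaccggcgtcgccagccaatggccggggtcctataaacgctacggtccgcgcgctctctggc

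Of the 8 genes measured on both arrays, 3 were above 0 in both lines, 1 was below 0 in both and 4 had opposite signs. Of all 13570 genes, 4445, 4566 and 4559 fell into these classes. Most of the member ratios were within their error, and with 8 genes this split does not set the members apart. The response of ADM in MKN45 minus that in MKN74 was 0.73 on the log2 scale (combined error 0.29), the one member difference past 1.5-fold, where 1.47% of all genes were that far above in MKN45 and 0.825% that far below. For NDRG1 the difference was 0.41 (error 0.29), and the other members differed by -0.17 to 0.13. No test of these differences was possible with 1 array per cell line.

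When both arrays were fitted as replicates of 1 response in limma, with 1 residual degree of freedom and Benjamini-Hochberg adjustment over 17362 probes, 0 of 9 member probes passed an adjusted p of 0.05. Over all probes 0.0% passed as higher and 0.0115% as lower. At an unadjusted p under 0.05 the fit gave 1 member probe, CA9 (mean log2 ratio -0.21, SE 0.067, limma adjusted p = 0.28), beside 16.5% of all probes. After normexp and loess 1 member probe passed, the dimmer VEGFA probe (mean log2 ratio 0.26, SE 0.065, limma adjusted p = 0.023), in a fit that called 1822 of 17362 probes. The brighter VEGFA probe was at 0.14 (SE 0.064, limma adjusted p = 0.17) in that fit.

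Levels in control siRNA cells were compared between the lines as log2 Cy3 signal minus the 75th percentile of the array, each gene against itself. On this scale ADM was at 4.51 in MKN74 and -0.05 in MKN45, NDRG1 at 6.16 and 2.99, and SLC2A1 at 6.07 and 2.97. The differences, MKN45 minus MKN74, were -4.56, -3.18 and -3.10. ANKRD37 (-1.18, or 2.26-fold) and CA9 (-0.79, or 1.73-fold) were also lower in MKN45, which made 5 of 8 members at least 1.5-fold lower and 0 higher, against 28.2% lower and 27.3% higher among 13612 genes. ADM alone of the members was over 10-fold lower, as were 1.28% of all genes. VEGFA was at -0.37 (1.30-fold) by its brighter probe and -0.89 (1.85-fold) by the other, and PFKFB4 at 0.11 (1.08-fold) and PDK1 at 0.50 (1.41-fold), both of which were below 0 when arrays were scaled to their median. With that scaling 6 members were lower and 0 higher, against 52.5% and 12.3% of all genes.

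The remaining members went the other way. In Cy3, 2 of 10 members were well above background in MKN45 only, as were 8.36% of all genes, and 0 in MKN74 only, as were 3.45%. BNIP3 was at least 236-fold higher in MKN45 in control cells and at least 359-fold higher in SET7/9 siRNA cells, and EGLN3 at least 2.06-fold and 3.90-fold. These bounds set the dim side to the lowest signal well above background after scaling both channels across the arrays, and each compares 1 dye with the same dye on the other array. BNIP3 was thus 1 member of 10 with a bound of at least 10-fold toward MKN45, beside 1.61% of all genes. The median difference was -0.98 over 8 members, -0.58 over all 10 with the bounds included, and 0.02 over all genes. In the SET7/9 siRNA channel the median over 8 members was -0.92. The line difference was thus there with either siRNA, as follows from the small knockdown ratios on the same arrays. With 1 array each, RNA content and culture state cannot be separated from the line and cannot be told apart.

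**Figure D3:**
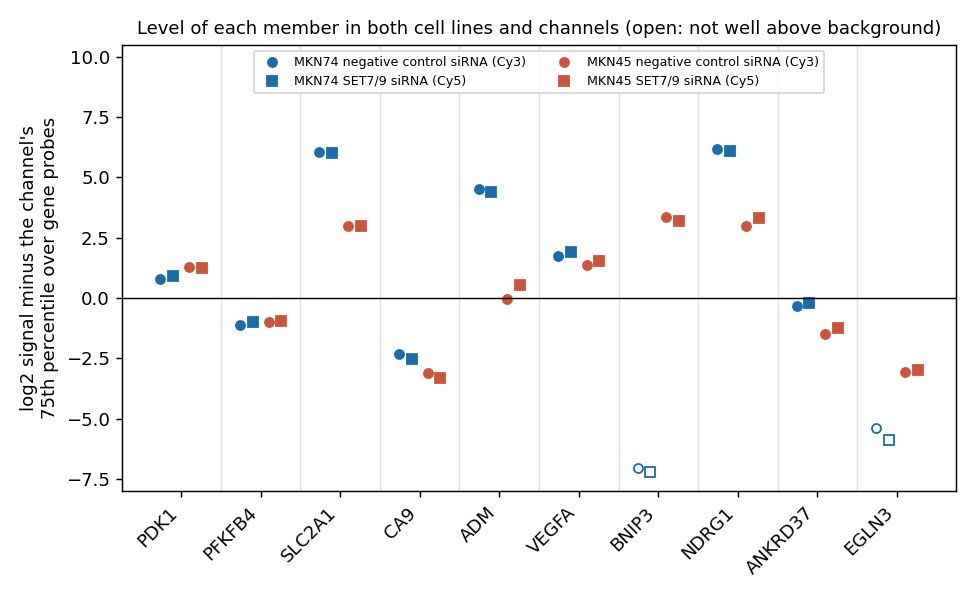
Log2 processed signal of each member's brighter probe minus the 75th percentile of that array and channel, for the control siRNA (circles) and SET7/9 siRNA (squares) in MKN74 (blue) and MKN45 (red). Open symbols were not well above background, and heights are comparable within a gene only. For ADM, NDRG1 and SLC2A1 both blue symbols lie far above both red ones, and for BNIP3 both red ones lie above.

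The genes that control HIF were examined in the same way. In a list of 18 regulators, including the HIF subunits, the prolyl hydroxylases, the VHL ligase and the coactivators, 17 were measured in MKN74 and 18 in MKN45, and SETD7 itself was the one past 1.5-fold in each. The median log2 ratio was 0.02 and 0.04. HIF1A (chromosome 14, 62214845 to 62214904) had signals of 905 and 1142 in MKN74 and of 1070 and 1202 in MKN45. Its 8 usable spots in MKN74 ran from 0.25 to 0.41 with a mean of 0.34 (error 0.21), and the 9 in MKN45 from 0.05 to 0.25 with a mean of 0.17 (error 0.20). A second HIF1A probe (62211472 to 62211531) was at 0.02 (error 0.21) and -0.06 (error 0.21), so the probes disagreed on the size in MKN74 and on the sign in MKN45.

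EPAS1, which encodes HIF-2 alpha, was at -0.10 in MKN74 and 0.15 in MKN45, its partner ARNT at -0.28 and -0.05, and VHL at 0.02 and 0.13. EGLN1, the main oxygen-sensing hydroxylase, was above its error in both lines, with 0.42 (error 0.21) in MKN74 against 0.32 (error 0.21) in MKN45. EP300, a coactivator of HIF singled out after its values were seen, had opposite signs, -0.52 (error 0.23) in MKN74 against 0.18 (error 0.21) in MKN45. In control cells 9 of 17 regulators were at least 1.5-fold lower in MKN45 and 1 was higher, against 28.2% and 27.3% of all genes on the same scale. With arrays scaled to their median the shares of all genes were 52.5% and 12.3%. The regulators were not counted on that scale, so their count is not to be read against these shares.

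A further 54 genes known to respond to hypoxia were read beside the members. Of 42 measured in MKN74, 0 were past 1.5-fold (all genes, 0.705% higher and 1.42% lower), with log2 ratios from SLC16A3, a lactate exporter, at -0.24 (error 0.21) to PDGFB, a growth factor of the vessel wall, at 0.31 (error 0.21). Of 45 in MKN45, 1 was higher, ANGPTL4, a secreted inhibitor of lipoprotein lipase, and 0 were lower, beside 0.828% and 1.49% of all genes. ANGPTL4 (chromosome 19, 8439197 to 8439256) had signals of 119 with control and 229 with SET7/9 siRNA, a log2 ratio of 0.94 (error 0.22), and was not well above background in MKN74, at 8.21 and 9.43. The lowest was PFKL, a subunit of phosphofructokinase, at -0.29 (error 0.21). Medians were -0.03 in MKN74 and 0.0053 in MKN45. Glycolysis genes, 17 of 18 measured in each line (without HK2 in MKN74 and without SLC2A3 in MKN45), had medians of -0.04 and -0.07. Of these, 7 and 6 were above 0, beside 7016 of 14459 and 7899 of 15702 among all genes.

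**Figure D4:**
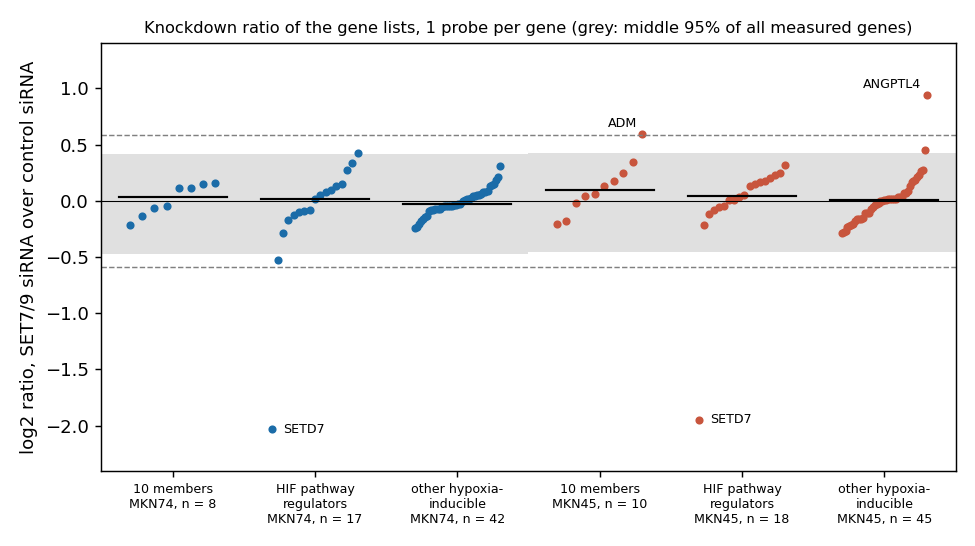
Log2 ratio of SET7/9 siRNA over control siRNA for the measured members, HIF pathway regulators and other hypoxia-inducible genes in MKN74 (blue) and MKN45 (red), 1 probe per gene in order of value, with black lines at the medians. Grey bands hold the middle 95% of all measured genes (MKN74 -0.47 to 0.41, MKN45 -0.46 to 0.42) and dashed lines mark 1.5-fold. Points past the dashed lines are SETD7 in both lines and ADM and ANGPTL4 in MKN45.

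In control cells, of 38 genes of the wider list measured in both lines, 9 were at least 1.5-fold higher in MKN45 and 12 lower, near the 27.3% and 28.2% of all genes, with a median difference of 0.28. The genes named next were chosen after their values were seen. SLC2A3, the glucose transporter GLUT3, had Cy3 signals of 3931 in MKN74 and 6.28 in MKN45, at least 291-fold lower in MKN45 by this probe and 71.0-fold by the other, and was 1 of 54 genes with such a bound of at least 10-fold toward MKN74 (0.891% of all genes). The hexokinase genes, whose products trap glucose in the cell, diverged. HK1 read 3727 in MKN74 and 392 in MKN45, 8.38-fold lower on the percentile scale. HK2 read 4.36 and 3881, at least 197-fold higher in MKN45, although a second HK2 probe was not well above background on either array. With CA12, an acid-handling carbonic anhydrase (at least 27.6-fold), PLOD2, a collagen lysyl hydroxylase (at least 95.2-fold), and BHLHE41, a transcriptional repressor (at least 72.8-fold), HK2 was 1 of 4 genes of 54 with such a bound toward MKN45.

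**Figure D5:**
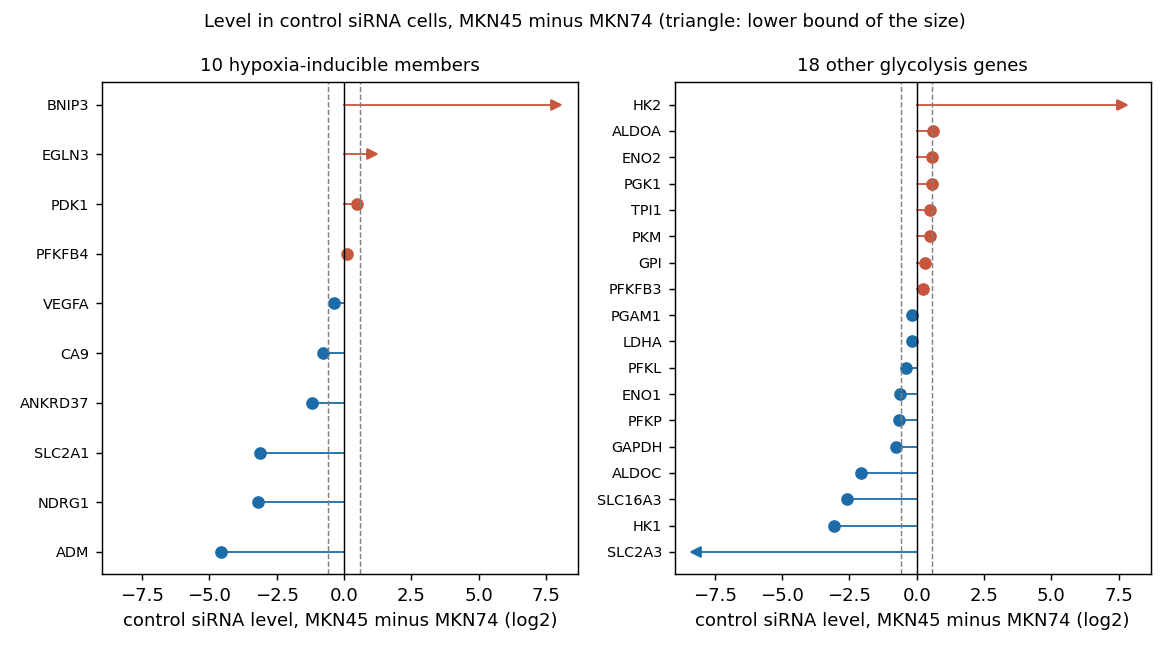
Difference in control siRNA level, MKN45 minus MKN74, on the log2 scale for the 10 members (left) and 18 other glycolysis genes (right), sorted by value, with dashed lines at 1.5-fold. Circles are differences measured in both lines and triangles are lower bounds on the size where 1 line was not well above background. BNIP3 and HK2 point to MKN45, and ADM, NDRG1, SLC2A1, HK1 and SLC2A3 to MKN74.

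Promoter letters were counted for the members that have an entry, 8 of 10 with 9 windows. ACGTG or GCGTG lay in the 250 bases upstream for 6 of 8 members, a member being counted where any of its windows held a match. Of all 35116 promoters, 43.2% held either one, 18.5% ACGTG and 32.2% GCGTG. These shares are per window, with 27305 genes behind the 35116 windows, so they are not of the same unit as the member count. ANKRD37 held 3 matches from 162 bases before the start, PFKFB4 held 1 at 166 and CA9 held 1 at 18. PDK1 held 2 in 1 of its windows, and EGLN3 held 0. BNIP3, with the most matches, was not well above background in MKN74, and SLC2A1 had 0 upstream.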

How the data were processed

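The authors deposited scanner output of Agilent Feature Extraction 10.7.3.1 for 2 arrays: spot intensity per channel, the log10 ratio (Cy5 to Cy3), its error, and flags for signal above background. A rounded log2 table, also from the authors, was deposited as well, and 99.8% (MKN74) and 99.7% (MKN45) of its values lay within 0.02 of the ratios used here. Background was subtracted and dyes were normalized by the software. Faint signals become surrogate values, which can set dim ratios to 0.

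Ratios were put on the log2 scale and averaged over spots that were not outliers. A probe counted as measured where Cy3 and Cy5 each exceeded background clearly on 50% or more of its spots, and the brightest probe stood for a gene. The cutoff was 1.5-fold, that of the study. R 4.3.3, limma 3.58.1 and Python 3.11.15 were used. The limma step was also run on simulated ratios, whose shared shift was larger than any member ratio. That run therefore does not show how the fit performs on ratios as small as those of the members. All members are named at every probe, with SETD7, 5 regulators, any listed gene past 1.5-fold and the largest rise and fall of the wider list in each line. Genes named outside this rule are marked as such. The members and lists were chosen with earlier results of these data known. Both arrays shared 1 slide and 1 scan. Probe coordinates are GRCh37, for which exons and UTRs were not assigned here. Promoters and names are RefSeq on GRCh38.p14, where 11 of 11 member accessions matched. Their number, 1 array per cell line, limits the precision.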

Additional observations from a re-analysis of the deposited data

Results flagged for a closer look

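The ADM response differed between the cell lines by 0.73 on the log2 scale (MKN45 minus MKN74), with opposite signs and a difference well over its combined error of 0.29. The MKN74 ratio of -0.13 was itself within its error of 0.20. Every spot was below 0 in MKN74 (10 of 10) and above 0 in MKN45, but the spots of an array share 1 labelled RNA. Neither the spots nor the error cover variation between cultures. The difference was not tested, since each line has 1 array. In control cells ADM was 23.6-fold lower in MKN45, and the part of that level in the difference was not tested.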

How the results depend on the processing

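The count of members past 1.5-fold in MKN74 stayed at 0 in every alternative. In MKN45 it was 1 (ADM) in the main setting and under median centring, the deposited table, the looser filters, outlier spots kept and probe means. ADM has 1 probe, with all 10 spots kept and both channels above background. The filters, kept outliers and probe means therefore could not alter its ratio, and the deposited table only rounds it. The count was 0 after normexp and loess (ADM 0.53), 0 at a cutoff of 2-fold, and 2 at 1.2-fold, where NDRG1 joined. Member probes called in both lines by limma went from 0 to 1 (VEGFA) after normexp and loess and stayed at 0 otherwise, with lowest adjusted p from 0.28 to 0.38. Median ratios of both lists stayed near 0 without a fixed sign: in MKN74 the member median of 0.033 became -0.022 after normexp and loess and also with no filter, and the wider median of -0.031 became 0.0059 after normexp and loess. The median control difference of -0.98 became -0.85 after normexp, loess and Aquantile, -0.58 with no filter on dim probes, and -1.65 with the array median in place of the 75th percentile. That last choice moved all genes by -0.66, and so left the members' distance from them as it was, with 6 members lower and 0 higher beside 52.5% and 12.3% of all genes, and it turned PDK1 to -0.16 and PFKFB4 to -0.55. Of 18 member ratios, 15 kept their sign in every setting, and those of PDK1, PFKFB4 and SLC2A1 in MKN45, all near 0, did not. The filters and kept outlier spots left these ratios unchanged, and the deposited table is a rounded copy of them. Median centring and probe means moved them little, so normexp and loess was the one setting that put the signs to a check. Counting the 50 bases after the start, chosen after seeing the data, raised members with the core letters from 6 to 7 and the share of all promoters from 43.2% to 48.4%. No paired analysis was possible because each cell line has 1 array, beyond the pairing of both siRNAs on an array that every log2 ratio and the limma fit already use. Leaving out an array leaves no residual degrees of freedom, so it was not run. Dim signals in MKN74 limit BNIP3 and EGLN3 to bounds.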

Other observations

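The genes named here were singled out after their values were seen. Beside ANGPTL4 (0.94) and ADM (0.59), EDN1, the vasoconstrictor peptide endothelin, was at 0.28 (error 0.21) by its brighter probe and 0.64 (error 0.22) by a dimmer one. In MKN74 the brighter EDN1 probe was at -0.04 (error 0.22). Control levels of EDN1 and ADM differed in opposite directions between the lines, EDN1 being 8.40-fold higher and ADM 23.6-fold lower in MKN45. PPP1R3C, a regulator of glycogen synthesis that is not secreted, was at 0.45 (error 0.21) in MKN45 and not well above background in MKN74. With both arrays as replicates in limma, neither the brighter EDN1 probe (adjusted p = 0.57) nor ADM (adjusted p = 0.55) passed, and MKN45 alone, with 1 array, could not be tested.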
